A study of Mus musculus with 25 samples.

Results

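Transcript levels were compared between the 3 clones of mouse embryonic stem (ES) cells that carry the weak β-catenin mutations S45C, T41N and T41S and untreated cells of the unedited line. The members were chosen by their column labels: clones S45C D3, T41N D3 and T41S H8, with 1 library each, against the 2 libraries of unedited cells at 0 µM CHIR99021, which makes 5 of the 25 libraries of the series. All 5 were E14 (E14IVtg2a) cells, a feeder-free ES line, grown in medium with serum and leukemia inhibitory factor (LIF); the labels give both groups as 0 µM of the GSK3β inhibitor CHIR99021 for 48 h. The unedited cells are labelled WT, and each clone is heterozygous for its mutation at the endogenous *Ctnnb1* locus. Weak here refers to a low score of the mutation in the reporter screen of the study. The other 12 clones of the series, which carry codon 37 changes, T41A, T41I, S45F or S45P, and 8 libraries of unedited cells under CHIR99021 are used for reference only. Each weak mutation is represented by a single clone, so clone and mutation cannot be told apart. The clones had a selection cassette knocked into *Ctnnb1* and then replaced by repair from a mutant donor, after which colonies were picked, and the untreated cells were not edited. Editing, cloning and any library batch therefore go with genotype, and their parts in every difference below cannot be told apart.

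β-Catenin is the transcriptional effector of canonical Wnt signaling and also links cadherins to the actin cytoskeleton. In the absence of Wnt, CK1α phosphorylates S45 and GSK3β then phosphorylates T41, S37 and S33, which creates the docking site for the ubiquitin ligase adaptor β-TRCP and sends the protein to the proteasome. Many changes at these residues weaken degradation, to different degrees, and β-catenin that is not degraded enters the nucleus and activates genes together with TCF/LEF factors. T41S keeps a residue that can be phosphorylated, whereas T41N and S45C do not keep a serine or threonine. In ES cells the pathway is known for sustaining naive pluripotency at moderate activity and for driving mesendoderm differentiation at high activity.

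The codons that differ between the clones lie in exon 3 of *Ctnnb1*. Codons 31 to 48 of transcript Ctnnb1-201 occupy chr9:120950599-120950652 on the plus strand of GRCm38 (mm10), all coding sequence. The reference sequence is shown because every mutant clone in the series alters 1 of the 3 codons in capitals, which are codon 37 (the site of 5 other clones), codon 41 (T41N, T41S) and codon 45 (S45C), in that order.
Ctnnb1 codons 31 to 48: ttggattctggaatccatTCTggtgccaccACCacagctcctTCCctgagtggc

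The 5 libraries held 495616 to 1839735 deduplicated counts, and 13379 to 16175 genes were detected. The S45C and T41N libraries were the shallowest of the 5, with 662881 and 495616 counts, and T41S had 1770304. Where a gene had no count, up to 3 counts remain possible at 95% confidence for counting error alone, or 1.63 to 6.05 CPM (counts scaled by the library total) depending on the library. Mitochondrially encoded transcripts made up 1.31% and 0.562% of counts in untreated replicates 1 and 2 and 1.61% to 2.43% in the clones; their part in the differences below was not tested. The biological coefficient of variation was 0.0883 between the untreated libraries and 0.203 among the clones. The ES cell transcripts *Sox2*, *Nanog*, *Zfp42* and *Utf1* were present in all 5 libraries at 186 CPM or more, whereas *Pou5f1* was counted at only 18.5 and 15.9 CPM in the untreated libraries and 9.05, 24.2 and 18.6 CPM in S45C, T41N and T41S. *Pou5f1* and *Gapdh* have near-identical copies elsewhere in the genome that could take up or exclude their reads, so their levels are uncertain.

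The weak clones differed broadly from untreated cells. Of 9559 genes tested with edgeR's quasi-likelihood test, 2751 (28.8%) passed an adjusted p of 0.05, with 1269 (13.3%) higher and 1482 (15.5%) lower in the clones. Changes over 2-fold were found for 728 of the higher and 944 of the lower genes. The level in every clone lay outside the range of the untreated pair, on 1 side, for 5459 genes (57.1%; 31.4% with the clones above and 25.7% with the clones below), and for 2734 of those called. The untreated arm limits these counts: without untreated replicate 1 the test called 538 genes and without untreated replicate 2 it called 746, each time with the lone untreated library assumed to vary like the clones. DESeq2 called 1690 genes. For any single gene, 5 libraries can be split into 3 and 2 in only 10 ways. The smallest one-sided exact permutation p is thus 0.1, or 0.2 when doubled for both directions. Gene-wise calls therefore rest on the variance shared across genes.

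Most of the endogenous β-catenin targets that could be tested were higher in the weak clones. The 10 targets were those the study selected for their rise with CHIR99021 dose, a series that includes the same 2 untreated libraries, so the list is not independent evidence of their direction. Of 9 that could be tested, 6 rose (66.7%, beside 13.3% of all genes tested that were called higher), none fell and 3 were not called; the median log2 fold change was 1.16, beside 0.02 over all genes. *Nkd1*, an inhibitor of Dishevelled, was too low to test, with 17 and 9 counts in the untreated libraries and 1, 1 and 18 counts in S45C, T41N and T41S. The summed level of the 10 genes was 237 to 249 CPM in untreated cells, 442 to 531 CPM in the weak clones and 581 to 1315 CPM in the other 12 clones.

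Among the feedback regulators, *Axin2*, a scaffold of the destruction complex, was at 15.8 and 13.8 CPM in untreated cells and at 22.6, 38.3 and 42.4 CPM in S45C, T41N and T41S. All 3 clones lay above both untreated libraries, S45C least, and the log2 fold change was 1.16 ± 0.34 (SE; adjusted p = 0.0282). *Notum*, a secreted enzyme that inactivates Wnt ligands, was at 9.24 and 8.51 CPM in untreated cells and at 58.8, 38.3 and 26.0 CPM in the same clone order, so here S45C was highest and T41S lowest (log2 fold change 2.03 ± 0.41, adjusted p = 0.00569). *Znrf3*, a ubiquitin ligase that removes Frizzled receptors, overlapped between the groups, at 23.9 and 23.4 CPM against 25.6, 16.1 and 26.0 CPM, and was not called (log2 fold change −0.09 ± 0.30, adjusted p = 0.906). Its estimate was 0.06 without T41N, the opposite sign.

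*Sp5*, a zinc-finger repressor and a direct target of β-catenin, gave the clearest rise of the selected set. Its levels were 15.2 and 14.9 CPM in untreated cells and 52.8, 62.5 and 80.2 CPM in S45C, T41N and T41S, more than 3-fold apart with no overlap (log2 fold change 2.06 ± 0.29, adjusted p = 9.19e-04). *Sp5* was called under every alternative tried. The signaling ligand *Bmp4* rose from 48.9 and 54.2 CPM to 80.0, 135 and 139.5 CPM (log2 fold change 1.14 ± 0.26, adjusted p = 0.00931), again with S45C nearest to the untreated libraries. *Etv4*, an ETS factor of the FGF response, rose from 29.4 and 17.0 to 73.9, 80.7 and 57.1 CPM (log2 fold change 1.42 ± 0.28, adjusted p = 0.00509). The homeobox gene *Gbx2* was at 21.2 and 15.9 CPM in untreated cells and at 63.4, 74.7 and 28.8 CPM in the clones, with T41S close to the untreated range (log2 fold change 1.34 ± 0.40, adjusted p = 0.0303).

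The remaining targets, both transcription factors of development, were not called. *Cdx1*, a caudal-type homeobox gene, was at 27.7 and 28.7 CPM in untreated cells and 34.7, 32.3 and 35.6 CPM in the clones (log2 fold change 0.21 ± 0.25, adjusted p = 0.555), while it reached a mean of 299 CPM in unedited cells at 10 µM CHIR99021. *Tbx3*, a T-box gene, was at 48.9 and 51.0 CPM in untreated cells and 28.7, 50.4 and 28.8 CPM in S45C, T41N and T41S, where T41N overlapped the untreated range (log2 fold change −0.63 ± 0.28, adjusted p = 0.112). Without T41N the *Tbx3* difference was called, at a log2 fold change of −0.86. Calls for the other targets depended on single libraries: without untreated replicate 1 the test called 2 of 9 targets, and without untreated replicate 2 it called 1 of 10. *Axin2* was also lost without T41N or T41S, and *Gbx2* without S45C or T41N.

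**Figure D1:**
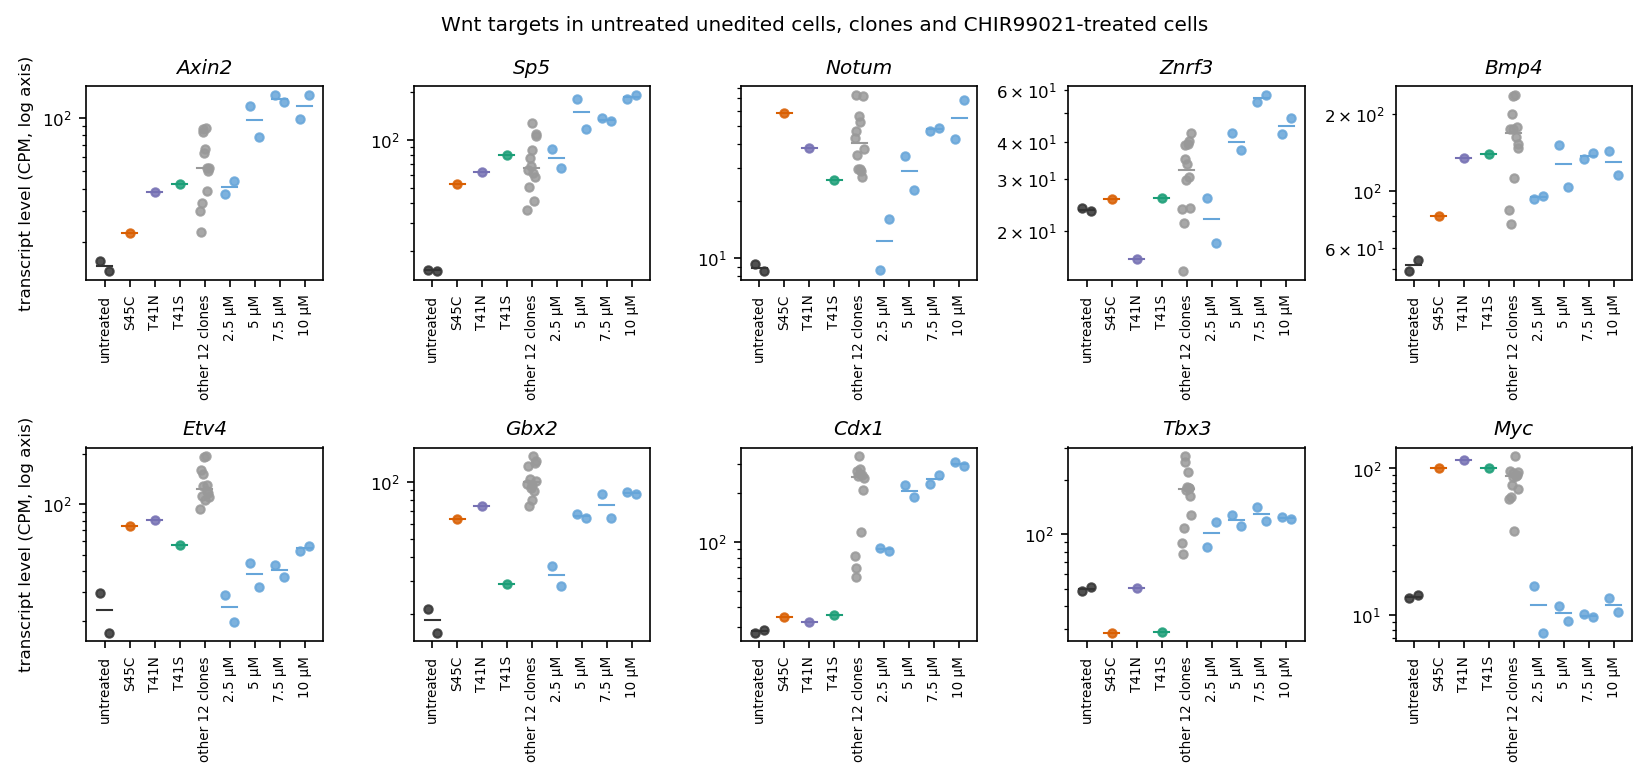
Transcript level (CPM, log axis) of 9 selected targets and *Myc*, with 1 point per library and a bar at each group's median: untreated unedited cells, the 3 weak clones, the other 12 clones, and unedited cells at 4 doses of CHIR99021. *Sp5*, *Axin2*, *Notum*, *Bmp4*, *Etv4* and *Gbx2* lie above the untreated pair in every weak clone, *Cdx1* stays at 32.3 to 35.6 CPM, and *Myc* is at 101 CPM or more in the weak clones and at a mean below 12 CPM at every dose of CHIR99021.

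The promoter of *Sp5* is shown because *Sp5* was the target called in every alternative. The 250 bases before its start (chr2:70474673-70474922, plus strand, RefSeq sequence on GRCm38.p6) hold 1 match, in capitals, to the TCF/LEF-type motif CTTTGAT searched on both strands. Such a match was found in 164 of 7477 promoters of tested genes (2.19%) and in 1 of the 4 target promoters available.
Sp5: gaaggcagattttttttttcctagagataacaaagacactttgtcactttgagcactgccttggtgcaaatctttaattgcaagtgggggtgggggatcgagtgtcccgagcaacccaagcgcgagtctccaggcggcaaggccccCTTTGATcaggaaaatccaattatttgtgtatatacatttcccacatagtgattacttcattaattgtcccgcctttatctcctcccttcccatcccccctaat

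The mutated gene itself was not detectably changed. *Ctnnb1* was at 439.7 and 445 CPM in untreated cells and 511, 434 and 525 CPM in S45C, T41N and T41S, which overlap (log2 fold change 0.06 ± 0.15, adjusted p = 0.769). Since the method counts 3′ ends, the level does not distinguish the alleles. Of 14 genes of the destruction complex and its partners, 2 rose and 1 fell (21.4%, below the 28.8% of all genes tested). *Jup*, which encodes the β-catenin paralog plakoglobin, rose from 154 and 125 to 259, 303 and 315 CPM (log2 fold change 0.97 ± 0.17, adjusted p = 0.00296), and *Apc*, another scaffold, rose by a log2 fold change of 0.65. *Csnk1a1*, which encodes CK1α, fell from 460.4 and 448 to 336, 353 and 312 CPM (log2 fold change −0.53 ± 0.14, adjusted p = 0.017). None of the 3 was called without untreated replicate 2.

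Of 15 further genes known from the Wnt pathway, 7 were testable, of which 4 rose and 1 fell (71.4%, beside 28.8% of all genes). *Myc*, a growth regulator, was at 13.0 and 13.8 CPM in untreated cells and at 101, 115 and 101 CPM in S45C, T41N and T41S. The 3 clones lay close together and more than 7-fold above the untreated pair (log2 fold change 2.88 ± 0.24, adjusted p = 8.13e-05), and the call held in every alternative. Unedited cells treated with CHIR99021 had a mean of 11.7 CPM at 2.5 µM and 11.8 CPM at 10 µM, whereas the other 12 clones ranged from 37.4 to 121 CPM. *Lef1*, a TCF/LEF factor, rose from 8.15 and 11.7 to 39.2, 52.5 and 27.7 CPM (adjusted p = 0.00584), the receptor gene *Tnfrsf19* rose by a log2 fold change of 1.82 ± 0.36, and cyclin D1 (*Ccnd1*) by 0.97 ± 0.22. *Lef1* and *Tnfrsf19* were not called without untreated replicate 1, and *Ccnd1* was not called when 1 untreated library was left out, whichever of the pair. *Tcf7* was called lower (log2 fold change −0.64 ± 0.21, adjusted p = 0.0463), a call lost in 11 of 14 alternatives.

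The 12 genes with the largest rises, among called genes averaging 20 CPM or more over the 5 libraries and without overlap, had log2 fold changes of 3.19 to 4.87. *Ccn4*, a matricellular protein first described as induced by Wnt1, was at 1.63 and 1.06 CPM in untreated cells and at 22.6, 44.4 and 66.7 CPM in S45C, T41N and T41S. The untreated values rest on 3 and 1 counts, and the ratio of pooled counts was 36.8 with a 95% counting interval of 14.1 to 137. *Edn1*, the vasoactive peptide endothelin 1, was at 2.72 and 1.06 CPM against 22.6, 40.4 and 53.1 CPM, a pooled ratio of 20.4 (9.13 to 56.6).

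*Tgfb2*, a TGF-β ligand, was at 4.35 and 6.38 CPM in untreated cells and 25.6, 72.6 and 112 CPM in the clones (log2 fold change 3.77 ± 0.62, adjusted p = 0.00213). *Thbs1*, the matrix glycoprotein thrombospondin 1, went from 16.9 and 33.0 CPM to 110.1, 222 and 363 CPM (log2 fold change 3.26 ± 0.49, adjusted p = 0.00143). *Flnc*, the actin cross-linker filamin C, went from 10.9 and 9.57 CPM to 101, 133 and 198 CPM (log2 fold change 3.75 ± 0.36, adjusted p = 1.91e-04). In each of the 3 genes S45C was the lowest clone and T41S the highest, and no clone overlapped the untreated pair. The focal adhesion gene *Tgfb1i1* (3.19), the cortical scaffold gene *Phldb2* (3.39), the neuropeptide precursor gene *Vgf* (3.61), the lysophosphatidic acid receptor gene *Lpar4* (3.27), the protease inhibitor gene *Serpinb9b* (3.68), the mitochondrial carrier gene *Slc25a24* (3.26) and the heparan sulfate sulfotransferase gene *Hs6st2* (3.24, all log2 fold changes) complete the 12. *Tgfb2*, *Vgf* and *Tgfb1i1* were not called without untreated replicate 1; the other 9 were called in every alternative.

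The rises extended to the actin cytoskeleton as a group. Of 21 testable contractile and actin genes, 18 rose and none fell (85.7% called, beside 28.8% of all genes), with a median log2 fold change of 1.67. Together the 22 listed genes made up 11858 to 12266 CPM in untreated cells, 16843 CPM in S45C, and 27215 and 37055 CPM in T41N and T41S. *Acta2*, smooth muscle α-actin, was at 64.7 and 87.2 CPM in untreated cells and 241, 646 and 1169 CPM in S45C, T41N and T41S (log2 fold change 3.13 ± 0.54, adjusted p = 0.00274). *Tagln*, the actin-binding protein transgelin, rose from 89.7 and 128 to 373, 621 and 1147 CPM, and tropomyosin 1 (*Tpm1*) from 427 and 429.5 to 784, 1349.8 and 2628 CPM. The matricellular genes *Ccn1* and *Ccn2*, well-known readouts of YAP and serum response factor, had log2 fold changes of 2.44 ± 0.30 and 2.57 ± 0.29. *Tagln2*, *Cnn3* and *Tpm2* were not called. Without untreated replicate 1 there were 5 calls, and without untreated replicate 2 there were 7, all higher.

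The clones ranked in the same order for this list. In all 21 genes T41S had the highest and S45C the lowest level of the 3 clones, whereas over all genes tested T41S was the highest clone for 33.8%. The test for any difference among the 3 clones called 16 of the 21 genes, beside 2.87% of all 11375 genes tested. That test took its spread from replicated genotypes and doses, with a biological coefficient of variation of 0.109. Among the weak clones, their differences included, it was 0.203, so the test may call too many genes. The median log2 fold changes against untreated cells were 0.82 in S45C, 1.47 in T41N and 2.27 in T41S. Other lists shared the order. All 4 testable fibroblast and mesenchyme genes (*Col1a1*, *Col5a1*, *Fn1*, *Vim*) were highest in T41S and lowest in S45C, all 4 were called among the clones, and the clone medians were 0.25, 1.18 and 2.35. The list holds 15 genes, and the others, *Pdgfrb*, *Dcn*, *Lum* and *Postn* among them, were too low to test. *Fn1*, fibronectin, was at 624 and 529 CPM in untreated cells and 361, 589 and 803 CPM in S45C, T41N and T41S. All 6 testable primitive endoderm genes were highest in T41S, and 4 of them were lowest in S45C. The part of other cell types in the order of the actin genes was not tested.

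**Figure D2:**
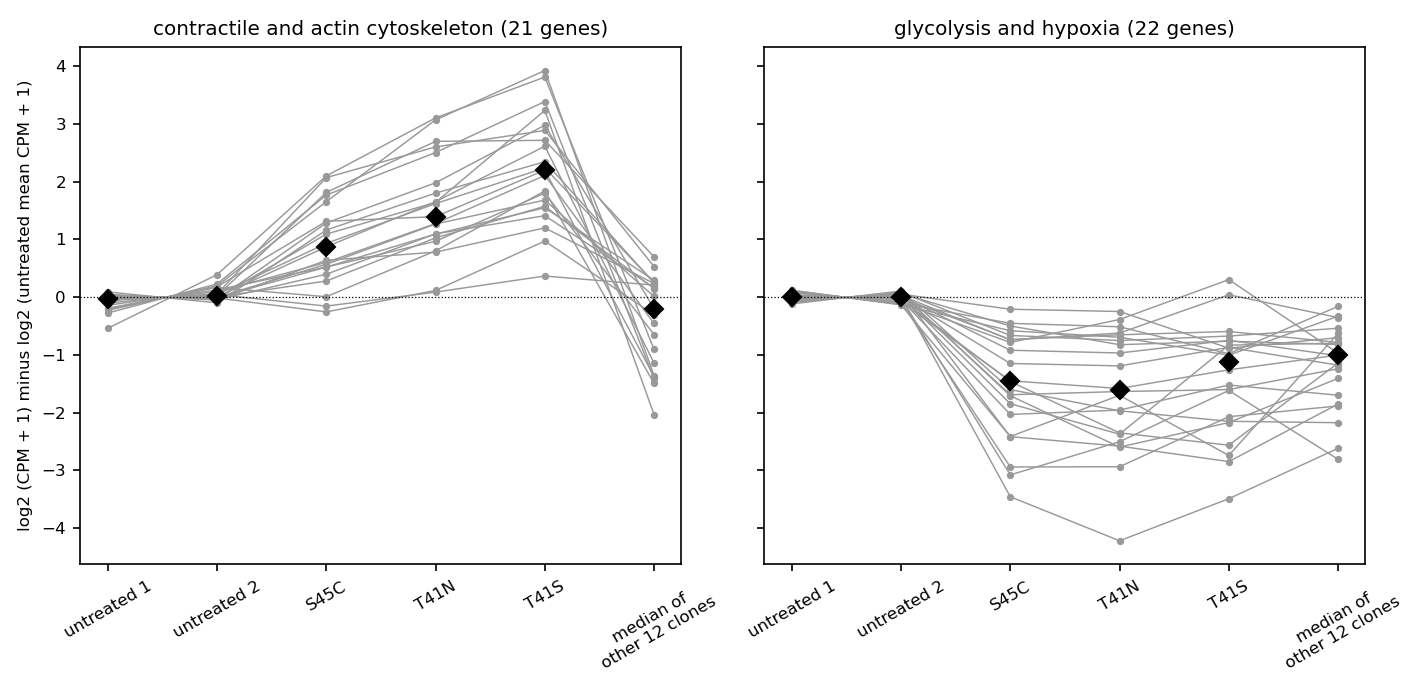
Difference of log2 (CPM + 1) from the log2 of the untreated mean plus 1 (y axis) for each gene of 2 lists (gray lines), in the 2 untreated libraries, the 3 weak clones and as the median of the other 12 clones; black diamonds are medians over genes. The actin list climbs from S45C to T41S while the glycolysis and hypoxia list lies below untreated cells in each clone and in the other 12 clones.

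Some epithelial and matrix genes that also mark extraembryonic lineages rose, while the defining factors *Cdx2*, *Elf5*, *Gata4*, *Gata6* and *Sox7* were at 0 to 11.7 CPM in the 5 libraries, too low to test. In these bulk libraries more cells of a type and more RNA per cell cannot be told apart. *Krt8* and *Krt18*, keratins of simple epithelia and trophectoderm, both rose. *Krt8* was at 139 and 151 CPM in untreated cells and 505, 718 and 1738 CPM in S45C, T41N and T41S (log2 fold change 2.71 ± 0.46), and *Krt18* was at 139 and 163 CPM and 339, 547 and 1258 CPM (2.19 ± 0.46). Of the 6 testable trophectoderm genes, 3 rose and none fell (50%, beside 28.8% of all genes tested). *Hand1*, among the 3, was at 3.26 and 0 CPM in untreated cells, where 0 counts allow up to 3.19 CPM. It was at 10.6, 26.2 and 18.6 CPM in the clones. *Tfap2c* was at 60.9 and 55.3 against 49.8, 44.4 and 25.4 CPM and was not called. The summed level of the 12 listed trophectoderm genes was 385 to 414 CPM in untreated cells and 976 to 3120 CPM in the clones, most of it *Krt8* and *Krt18*. Of the 6 testable primitive endoderm genes, *Sparc*, *Col4a1*, *Col4a2* and *Dab2* rose (66.7%, beside the same 28.8%) and the laminin genes *Lama1* and *Lamb1* were not called. *Lama1* was at 64.1 and 63.8 CPM in untreated cells and 58.8, 50.4 and 62.7 CPM in the clones. The summed list of 14 was at 708 to 751 CPM in untreated cells and 1442 to 3268 CPM in the clones, most of it *Sparc*. *Sparc*, a matrix protein, rose from 458 and 502 to 1101, 1404 and 2599.6 CPM (log2 fold change 1.75 ± 0.32, adjusted p = 0.00316). The intermediate filament gene *Vim* rose from 147 and 147 to 267, 662 and 782 CPM and *Nes*, nestin, from 18.5 and 18.1 to 30.2, 48.4 and 127 CPM. Without untreated replicate 1 there was 1 trophectoderm call and no primitive endoderm call, and without untreated replicate 2 there was 1 of each.

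Pluripotency genes changed in both directions. Of 13 testable naive genes, 1 rose and 3 fell (30.8%, near the 28.8% of all genes), with a median log2 fold change of −0.46. *Fgf4*, the autocrine FGF of ES cells, fell from 327 and 333 to 122, 103 and 57.1 CPM (log2 fold change −1.97 ± 0.25, adjusted p = 6.96e-04), and the AKT cofactor gene *Tcl1* from 101 and 95.7 to 37.7, 28.2 and 20.3 CPM (−1.95 ± 0.25). The transcription factor gene *Tfcp2l1* fell (log2 fold change −0.97 ± 0.24), and *Tdh*, the threonine dehydrogenase of mouse ES cells, rose from 286 and 307 to 810.1, 732 and 370.0 CPM (1.00 ± 0.28). In 12 of the 13 naive genes T41S was the lowest of the 3 clones; *Esrrb*, for example, was at 346 and 286 CPM in untreated cells and 216, 274 and 121 CPM in S45C, T41N and T41S. Of 11 testable core genes, *Dppa2* and *Trim28* rose and *Dppa5a* fell, from 833 and 935 to 388, 365 and 256 CPM (−1.497 ± 0.18), a share of 27.3%. With 1 untreated library left out, whichever of the pair, 2 naive and 1 core gene were called, all lower.

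Of 7 testable primed genes, *Dnmt3b*, *Pou3f1* and *Cldn6* rose and *Sfrp2* fell (57.1%, beside 28.8% of all genes). Only *Dnmt3b* was called without untreated replicate 1, and only *Dnmt3b* and *Sfrp2* without untreated replicate 2. *Dnmt3b*, a de novo DNA methyltransferase, was at 151 and 123 CPM in untreated cells and 499, 397 and 366 CPM in the clones, with no overlap (log2 fold change 1.52 ± 0.18, adjusted p = 5.03e-04). *Otx2* was not called, at 17.9 and 19.14 CPM against 19.6, 10.1 and 6.21 CPM, and *Fgf5* was too low to test. Of 4 testable mesendoderm genes, 1 rose and 1 fell (50%, beside the same 28.8%), and *Eomes* was not called. The ligand gene *Nodal* rose (57.1 and 54.2 to 121, 96.8 and 109.6 CPM) and its antagonist gene *Lefty1* fell (204 and 173 to 83.0, 64.6 and 124 CPM). Neither mesendoderm gene was called when 1 untreated library was left out, whichever of the pair.

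BMP and imprinted genes gave further rises. Of 12 testable genes of the BMP and TGF-β response, 6 rose and 2 fell (66.7%, beside 28.8% of all genes). Without untreated replicate 1 there were 2 rises and without untreated replicate 2 there were 5, with no fall in either case. *Id1* and *Id3*, direct SMAD targets that inhibit bHLH factors, both rose. *Id1* was at 19.02 and 18.1 CPM in untreated cells and 116, 74.7 and 85.9 CPM in the clones (log2 fold change 2.22 ± 0.26), and *Id3* at 23.4 and 9.57 CPM and 101, 113 and 167 CPM (2.78 ± 0.35). *Bmp7* fell from 16.3 and 18.1 to 3.02, 4.04 and 4.52 CPM, and *Smad6*, an inhibitory SMAD, fell (log2 fold change −1.505 ± 0.32). The *Bmp7* values in S45C and T41N lay below the 4.53 and 6.05 CPM that a count of 0 allows in these libraries. Of 19 testable imprinted genes, 10 rose and 2 fell (63.2%, beside the same 28.8%). *Peg10*, a retrotransposon-derived gene, rose from 129.9 and 176 to 652, 807 and 1039 CPM (log2 fold change 2.38 ± 0.24, adjusted p = 2.22e-04), and *Mest* from 52.7 and 44.7 to 151, 161 and 149 CPM. *Igf2r* and *Phlda2* were the 2 that fell. Without an untreated library 3 imprinted genes were called higher, whichever of the pair was left out.

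Of 13 p53-linked genes, 6 rose and 1 fell (53.8%, beside 28.8% of all genes). *Perp*, a desmosomal p53 target, rose from 47.8 and 44.7 to 128, 280.5 and 364 CPM and *Ccng1*, cyclin G1, from 172 and 194 to 379, 547 and 574 CPM, while *Cdkn1a*, the cell cycle inhibitor p21, overlapped at 291 and 298 CPM against 201, 363 and 465 CPM. *Bbc3* was the gene that fell. With 1 untreated library left out, 2 genes of the list were called higher in each case.

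**Figure D3:**
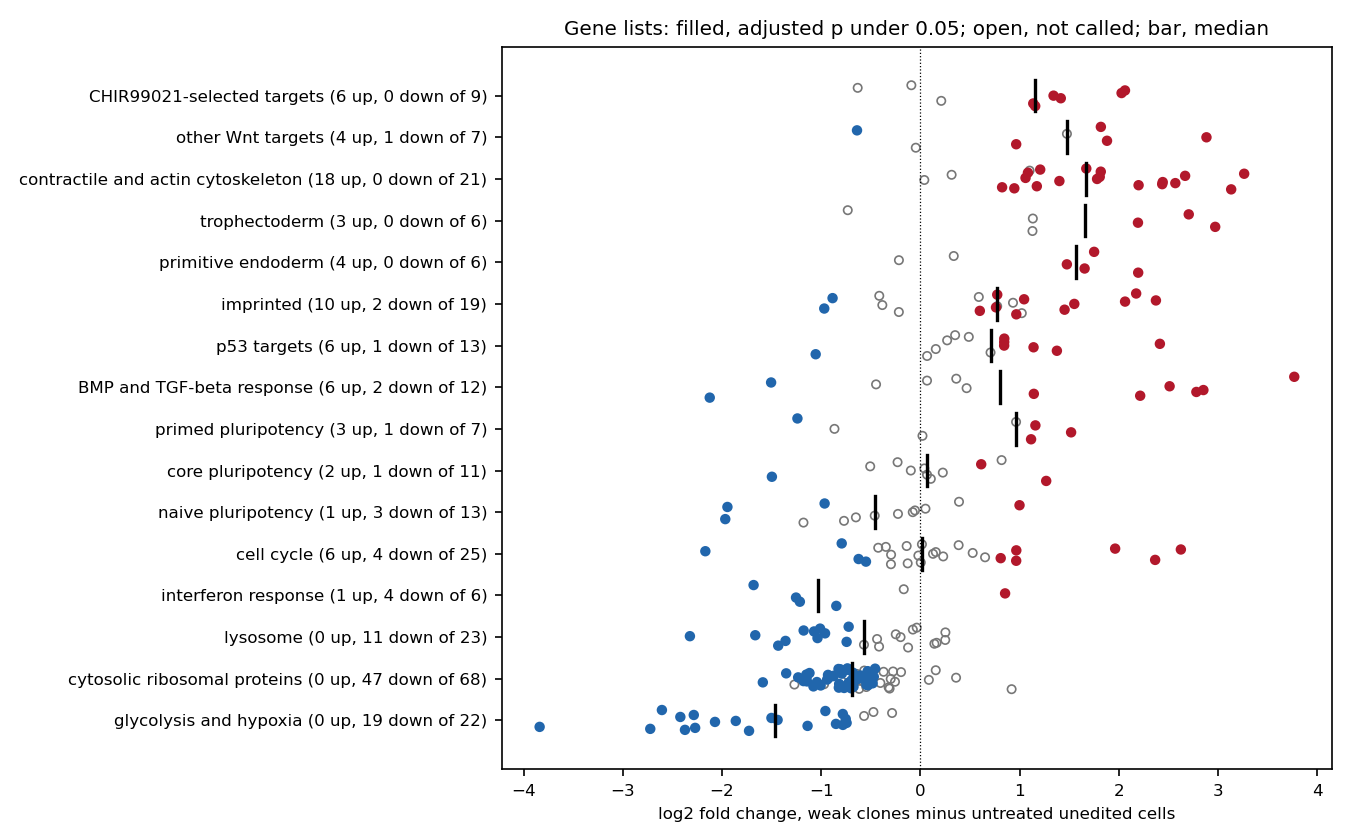
Log2 fold change, weak clones minus untreated unedited cells (x axis), of each testable gene in 16 lists; filled points passed an adjusted p of 0.05 (red higher, blue lower), open points did not, and black bars are medians. The actin list sits to the right with a median of 1.67, the glycolysis and hypoxia list to the left with a median of −1.47.

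The 12 largest falls, chosen by the same rule as the rises, had log2 fold changes of −2.96 to −6.23. *Ndufa4l2*, a mitochondrial protein induced by HIF-1, was at 132 and 179 CPM in untreated cells and at 1.51, 4.04 and 1.69 CPM in S45C, T41N and T41S. The clone values rest on 1, 2 and 3 counts; the pooled ratio of untreated to weak was 72.2 with a 95% counting interval of 32.9 to 198. *Egln3*, an oxygen-dependent prolyl hydroxylase that marks HIF for degradation, was at 92.9 and 92.5 CPM against 7.54, 4.04 and 7.34 CPM, based on 5, 2 and 13 counts in the clones (log2 fold change −3.84 ± 0.27, adjusted p = 3.31e-05). *Aldoc*, the glycolytic enzyme aldolase C, fell from 131 and 139 to 9.05, 24.2 and 10.7 CPM (−3.44 ± 0.30), and *Ndrg2*, a stress-responsive gene of the NDRG family, from 129 and 115 to 10.6, 16.1 and 9.04 CPM (−3.56 ± 0.26).

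The other 8 genes in that set were *Ppfia4* (liprin α4), *Arrdc2* (an arrestin-domain protein), *Mgarp* (a mitochondrial protein), *Prelid2*, *Tmem191c*, *Tjp3* (the tight junction protein ZO-3), *Pik3ip1* (an inhibitor of PI3 kinase) and the predicted gene *Gm10800*. *Gm10800* differed over 5-fold between the 2 untreated libraries, at 39.7 and 214 CPM, and may share reads with similar sequences, so its fall from there to 4.53, 2.02 and 3.95 CPM is uncertain. All 12 falls were called in every alternative.

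**Figure D4:**
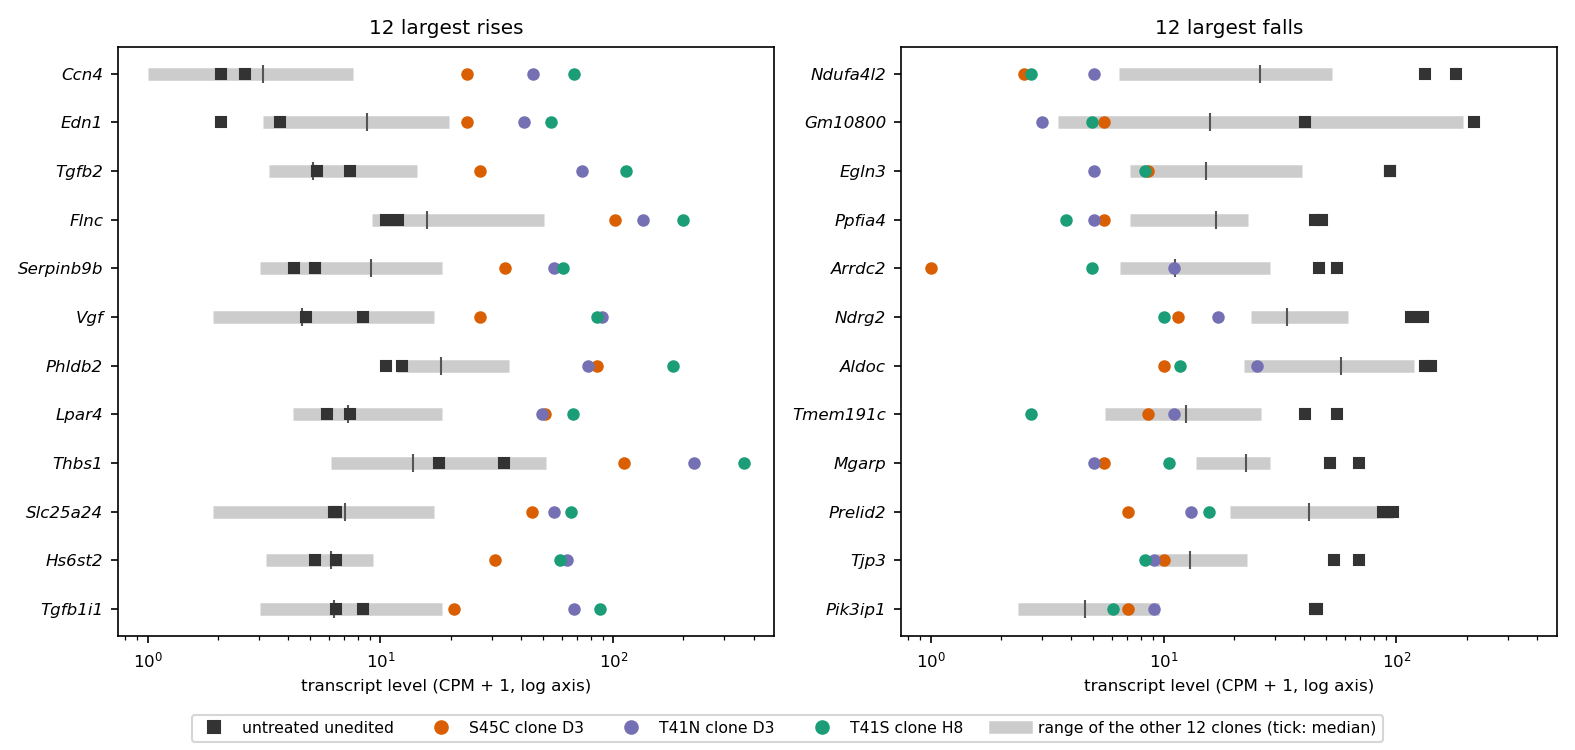
Transcript level (CPM + 1, log axis) of the 12 largest rises and 12 largest falls, with the 2 untreated libraries as squares, the 3 weak clones as colored circles and the range of the other 12 clones as gray bars with a tick at the median. By the rule that chose the 24 genes no weak clone overlaps an untreated library, and in each of the 12 rises the weak clones also lie above the range of the other 12 clones.

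Glycolytic enzymes and HIF targets fell as a group. Of 22 testable genes, 19 fell and none rose (86.4%, beside 15.5% of all genes tested called lower), with a median log2 fold change of −1.47. Without untreated replicates 1 and 2 there were 15 and 16 falls. *Gapdh* and *Pgk1*, among the 19, have processed pseudogenes and are uncertain. The summed level was 20913 to 21537 CPM in untreated cells and 10205 to 11726 CPM in the clones. *Bnip3*, a mitophagy receptor induced by HIF-1, was at 594 and 669.8 CPM in untreated cells and 118, 105 and 87.0 CPM in S45C, T41N and T41S (log2 fold change −2.72 ± 0.17, adjusted p = 2.02e-05). *Aldoa*, the main aldolase, fell from 5334 and 5749 to 1718, 1786 and 1827 CPM (−1.73 ± 0.12), *Pfkl*, phosphofructokinase of the liver type, from 901 and 806 to 312, 284 and 356 CPM (−1.502 ± 0.15), and the angiogenic factor gene *Vegfa* from 56.0 and 49.97 to 6.03, 6.05 and 11.9 CPM (−2.61 ± 0.32). The 3 clones lay within 2-fold of each other in *Bnip3*, *Aldoa* and *Pfkl*. A count of 0 allows up to 4.53 CPM in S45C and 6.05 CPM in T41N, so how close the clones lie in *Vegfa* is uncertain. The glucose transporter genes *Slc2a1* and *Slc2a3* were not called; T41S was at or above the untreated level in both, at 406, 535 and 864 CPM for *Slc2a1* in the clones against 746 and 652 CPM in untreated cells.

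Levels below the untreated pair were also found in the other 12 clones. *Bnip3* ranged from 118 to 281 CPM and *Aldoa* from 1766 to 3319.9 CPM in the other 12 clones, and the summed list from 9500 to 15564 CPM, whereas unedited cells under CHIR99021 kept a mean of 651 CPM of *Bnip3* at 2.5 µM and 661 CPM at 10 µM. All 15 clones were edited and picked as colonies, so mutation, editing, cloning and library batch cannot be told apart here.

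The *Bnip3* promoter is shown because it holds several copies of the hypoxia-response core. The 250 bases before the start (chr7:138909507-138909756, minus strand, RefSeq sequence on GRCm38.p6) hold 5 matches to ACGTG or GCGTG counted on both strands, some overlapping and in capitals. Of 20 listed genes with a promoter sequence, 16 (80.0%) hold at least 1 match, beside 60.7% of the promoters of all tested genes.
Bnip3: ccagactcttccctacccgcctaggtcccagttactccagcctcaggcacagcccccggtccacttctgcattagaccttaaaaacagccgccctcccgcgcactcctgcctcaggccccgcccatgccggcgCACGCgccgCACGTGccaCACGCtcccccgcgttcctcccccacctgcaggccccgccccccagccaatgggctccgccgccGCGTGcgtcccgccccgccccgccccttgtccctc

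Most ribosomal protein genes and 11 of 23 lysosomal genes fell. Of 68 testable cytosolic ribosomal protein genes, 47 fell and none rose (69.1%, beside 15.5% of all genes tested called lower), with a median log2 fold change of −0.69. The summed level of the 81 listed genes was 105086 to 117137 CPM in untreated cells and 64530 to 71692 CPM in the weak clones. The other 12 clones also lay below the untreated pair, at 75378 to 101087 CPM. Without untreated replicate 1 there were 29 falls and without untreated replicate 2 there were 19; many of these genes have processed pseudogenes, which makes single members uncertain. Of 23 testable lysosomal genes, 11 fell and none rose (47.8%, beside the same 15.5%), a count of 6 and 4 without the respective untreated library. The 24 listed lysosomal genes summed to 4079 to 4124 CPM in untreated cells and 2681 to 3559 CPM in the weak clones. They were below the untreated pair in the other 12 clones too, at 2733 to 3878 CPM. *Hexa*, a lysosomal hydrolase, fell and was at 176 and 174 CPM in untreated cells and 37.7, 22.2 and 44.1 CPM in the clones (log2 fold change −2.32 ± 0.23). *Lamp1* and *Grn* were not called.

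Interferon-response and mitochondrial genes gave smaller sets. Of 6 testable interferon genes, 4 fell and 1 rose (83.3%, beside 28.8% of all genes tested). The summed level of the 16 listed genes was 1756 to 1937 CPM in untreated cells and 1183 to 1328 CPM in the weak clones. It was 570 to 1497 CPM in the other 12 clones, and no testable member was called between the weak and the other clones. *Ifitm3*, a membrane restriction factor, rose from 242 and 284 to 422, 585 and 506 CPM. The *Ifitm3* call was lost when 1 untreated library was left out, whichever of the pair; 2 interferon genes were then called lower without replicate 1 and 3 without replicate 2. Its neighbors *Ifitm1* and *Ifitm2* fell, *Ifitm2* from 585 and 652 to 270.0, 295 and 264 CPM (−1.25 ± 0.14). Of 9 testable mitochondrially encoded genes, 3 rose and *mt-Nd6* fell (44.4%, beside 28.8% of all genes tested). *mt-Nd6* is encoded on the opposite strand from most of these genes, and the strand setting of the counting is not known. The summed level of the 15 listed genes was 5591 to 12996 CPM in untreated cells and 16094 to 24265 CPM in the weak clones. In the other 12 clones it was 15324 to 25184 CPM. *mt-Nd4*, a subunit of complex I, was at 1478 and 624 CPM in untreated cells and 3352, 4800.1 and 2974 CPM in the clones, so the untreated pair itself differed over 2-fold. Of the 9 genes, 5 were called higher and none lower without untreated replicate 1, and 2 were called each way without untreated replicate 2.

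The remaining lists had calls in both directions or few calls, to be read beside the 28.8% of all genes. Of 25 cell cycle genes 6 rose and 4 fell (40.0%), of 18 cholesterol synthesis genes 2 rose and 5 fell (38.9%), and of 13 genes of the ATF4 response 3 fell (23.1%). Of 11 heat shock genes 5 rose and 1 fell (54.5%), of 12 immediate early genes 3 rose and 1 fell (33.3%), and of 16 LIF and FGF feedback genes 3 rose and 2 fell (31.2%). *Dusp6*, an ERK phosphatase induced by FGF signaling, was among those, at 53.3 and 46.8 CPM in untreated cells and 189, 137 and 132 CPM in the clones (1.499 ± 0.21). Some genes belong to more than 1 list, so the counts are not separate observations. *Dusp6* and *Spry4* are rises of both the immediate early and the LIF and FGF lists, and *Dnmt3b*, *Cdkn1c* and *Ccnd1* are also counted in more than 1 list. Of 10 DNA methylation genes 3 rose and 2 fell (50%), of 7 germline genes 1 fell (14.3%), of 4 fibroblast genes *Col1a1* and *Vim* rose, of 6 neural genes *Nes*, *Tubb3* and *Nefl* rose, and of 12 listed two-cell-like genes the only testable one, *Eif1a*, rose. With 1 untreated library left out, each of these 11 lists had 0 to 4 calls. Of 3 testable Y-linked genes, *Eif2s3y* was called lower, a call lost in 8 of 14 alternatives, among them those without 1 untreated library.

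Taken singly against the untreated pair, the clones gave 2157 called genes in S45C (19%), 1906 in T41N (16.8%) and 3715 in T41S (32.7%) of 11375 tested, in a fit over all 25 libraries whose 9 residual degrees of freedom come from replicated genotypes and doses. The biological coefficient of variation of that fit was 0.109, below the 0.203 among the weak clones. If clones vary more than the fit assumes, its counts are too high. Higher and lower calls made up 9.72% and 9.24% in S45C, 9.03% and 7.73% in T41N, and 17.7% and 15% in T41S. The T41S library was also the deepest of the 3, and the part of depth in these counts was not tested. The clones differed from each other in 327 genes (2.87%), of which T41S was the farthest clone in 206, S45C in 111 and T41N in 10. T41S lay above the other clones in 151 of its 206 genes and S45C below in 92 of its 111. T41N was the shallowest library of the 3, and the part of depth in the counts of the farthest clone was not tested.

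The genes that differed most among the clones had several-fold differences in level. *Crim1*, a BMP-binding membrane protein, was at 6.03 CPM in S45C against 66.6 and 67.2 CPM in T41N and T41S, with 11.96 and 9.57 CPM in untreated cells. *Cav1*, caveolin 1, was at 4.53, 28.2 and 59.9 CPM in S45C, T41N and T41S. *Glrx*, glutaredoxin, was low in T41N, at 2.02 CPM against 16.6 CPM in S45C and 41.8 CPM in T41S, and *Npnt*, the matrix protein nephronectin, was high in T41S, at 48.6 CPM against 6.03 and 8.07 CPM. *Camk2d*, a calcium-dependent kinase, was low in S45C (6.03 CPM against 54.5 and 49.1 CPM), *Manba*, a lysosomal mannosidase, was high in T41N (54.5 CPM against 18.1 and 10.2 CPM), and the septin gene *Sept4* was high in T41S (79.1 CPM against 15.1 and 6.05 CPM). *Gm8730*, at 115 CPM in T41N against 679 and 643 CPM, is a predicted gene whose reads may be shared with a ribosomal protein gene. A count of 0 allows up to 4.53 CPM in S45C and 6.05 CPM in T41N. *Cav1* in S45C and *Glrx* and *Sept4* in T41N lay at or below these levels. *Crim1* and *Camk2d* in S45C and *Npnt* in both libraries lay close above, so the size of these differences is uncertain.

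Chromosome 16 stood apart in the S45C clone. The median log2 ratio to untreated cells over 237 genes of at least 20 CPM on chromosome 16 was 0.43 above that of all genes in S45C, beyond the range of 0.03 to 0.13 in the other 12 clones. In T41N and T41S the same chromosome was within that range or below it. The shift held along the chromosome, from 0.38 at 0 to 20 Mb to 0.43 at 80 to 100 Mb, with 0.45 and 0.78 at 20 to 40 and 40 to 60 Mb (9 genes only at 60 to 80 Mb). S45C exceeded both untreated libraries in 174 of the 237 genes (73.4%), against 52.3% in T41N and 50.2% in T41S. Of 317 chromosome 16 genes in the comparison of the 3 clones with untreated cells, 61 (19.24%) were called higher and 29 (9.15%) lower. Over all genes tested the shares were 13.3% and 15.5%. Without S45C the chromosome 16 calls were 61 higher and 48 lower of 326 genes, beside 1563 higher and 1701 lower of all 10264 genes tested. The median log2 fold change of the chromosome went from 0.21 to 0.04. *Phldb2* and *Dppa2*, named above, lie on this chromosome. All other shifts of the weak clones were between −0.17 and 0.14, with chromosome 17 at −0.15 to −0.17 in each clone.

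**Figure D5:**
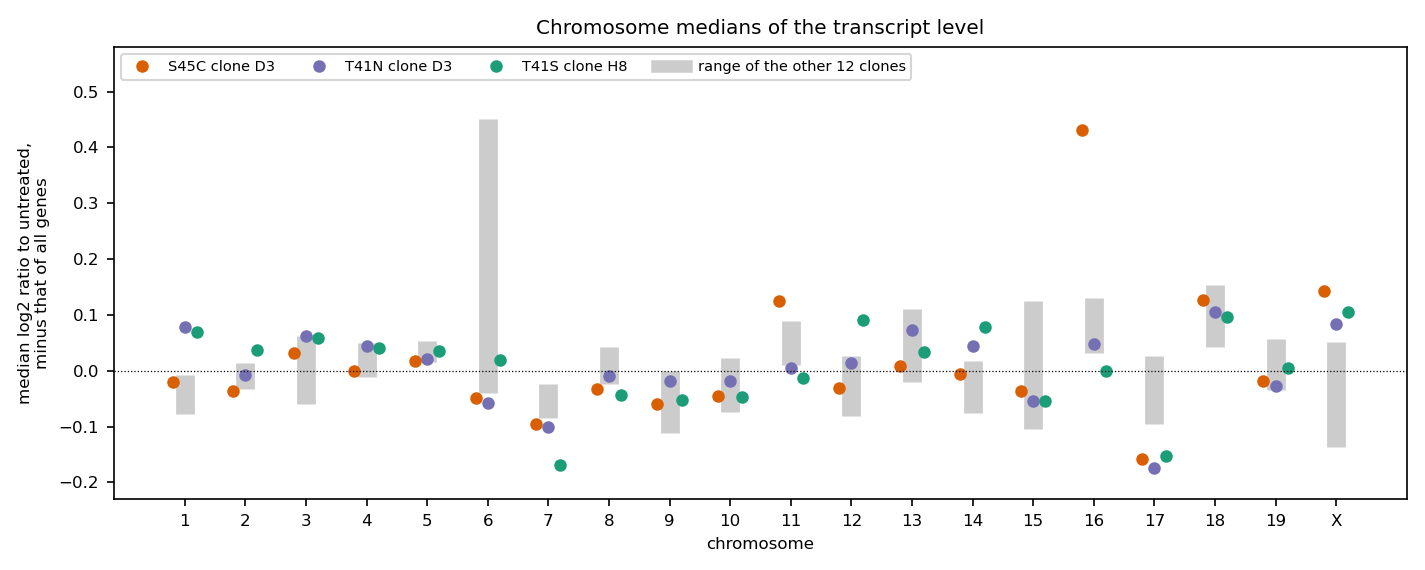
Median log2 ratio to untreated cells per chromosome minus that of all genes (y axis) for the 3 weak clones (colored points) and the range of the other 12 clones (gray bars). S45C lies at 0.43 on chromosome 16, and 1 of the other 12 clones reaches 0.45 on chromosome 6.

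Against the other 12 clones, 2905 of 11375 genes (25.5%) passed the test, with 1693 (14.9%) higher and 1212 (10.7%) lower in the weak clones. Weak is defined by the screen score, but the study also sorted its clones into low, medium and high classes by clustering these same libraries. This test is therefore not taken as independent of the grouping. It also rests on T41S: without that clone 1168 genes were called. Of the 1269 genes higher than in untreated cells, 659 (51.9%) were also higher than in the other clones and 7 were lower. Of the 1482 lower genes, 604 (40.8%) were also lower than in the other clones and 16 were higher. The 2 comparisons share the weak clones.

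The gene groups divided unevenly between the 2 comparisons. All 12 of the largest rises and 20 of 21 actin genes were higher in the weak than in the other clones. *Acta2*, for example, ranged from 8.18 to 133 CPM in the other clones. Unedited cells under CHIR99021 also lay above the untreated pair in *Tgfb2* (18.7 to 39.8 CPM) and *Flnc* (20.1 to 55.9 CPM). They overlapped the untreated pair in *Thbs1* (13.1 to 38.1 CPM) and *Acta2* (45.7 to 122 CPM). The part of β-catenin activity in these rises was not tested. Of the 12 largest falls, only 7 were also lower in the weak than in the other clones, and none was higher. *Pik3ip1*, for example, was at 6.03, 8.07 and 5.08 CPM in S45C, T41N and T41S and at 1.38 to 8.54 CPM in the other clones. *Myc* and *Sp5* passed no test against the other clones (log2 differences of 0.39 and 0.09, adjusted p = 0.166 and 0.834). Of the selected targets, *Cdx1*, *Tbx3*, *Etv4* and *Gbx2* were lower in the weak clones, *Cdx1* with 61.2 to 334 CPM and *Tbx3* with 78.0 to 269 CPM in the others. Of the 13 naive genes, 12 were lower in the weak clones; *Klf4*, a naive transcription factor, was at 213, 262 and 163 CPM in S45C, T41N and T41S, at 264 and 278 CPM in untreated cells and at 419 to 931 CPM in the other 12 clones. Of the glycolysis and hypoxia genes, 6 were lower and 1 was higher, and of the ribosomal protein genes 25 were lower.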

How the data were processed

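RNA of 25 libraries was profiled with mcSCRB-seq, a 3′ method with unique molecular identifiers (UMIs). The authors trimmed reads, extracted UMIs, removed rRNA, aligned to mm10, removed duplicates and counted reads per gene (featureCounts 2.0.1); the annotation release and strand setting are not given in the sources used here. The deposited values are counts without normalization, used as they are. Of 48440 gene IDs, 48058 were found in GENCODE M21 (GRCm38), which gave symbols; all rows name a gene.

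Groups came from the sample labels. CPM used total counts. The 3 weak clones were compared with the 2 untreated libraries with the quasi-likelihood F-test of edgeR 4.0.16, after TMM scaling and filterByExpr (at least 10 counts), with Benjamini-Hochberg adjustment over 9559 genes and a threshold of 0.05; SEs were derived from the F statistic. Single clones, differences among clones and the other 12 clones were tested in fits over all 25 libraries. DESeq2 1.42.0 (R 4.3.3) and other settings served as alternatives; the count tests were checked on simulated data. No source says that libraries of a group came from separate cultures, so p-values measure the spread between these libraries. Chromosome medians used log2(CPM + 1) over genes of at least 20 CPM. RefSeq promoters were available for 7477 tested genes.

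Named were the selected targets, *Ctnnb1*, the 12 largest rises and 12 largest falls among called genes of at least 20 CPM without overlap between groups, the 4 largest differences per clone, and members of 30 gene lists; some items that meet these rules are not reported here. The libraries, lists and rules were chosen with earlier results of these data known. Genes called higher had a median GC content of 47.75% and those called lower 52.52%, against 49.72% of all tested; this was followed by the alternative without a GC and length trend.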

Additional observations from a re-analysis of the deposited data

Results flagged for a closer look

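4 of the genes named for their large rise over untreated cells also differed among the S45C, T41N and T41S clones themselves, by the test of a difference between the clones in the fit over all 25 libraries (edgeR quasi-likelihood test, Benjamini-Hochberg adjustment). *Tgfb2* was at 25.6, 72.6 and 112 CPM in the S45C, T41N and T41S clones, and the adjusted p of the difference among them was 0.00511. *Thbs1* was at 110.1, 222 and 363 CPM (adjusted p = 0.0160), *Tgfb1i1* at 19.6, 66.6 and 86.4 CPM (adjusted p = 0.00913) and *Phldb2* at 84.5, 76.7 and 178 CPM (adjusted p = 0.0182). T41S was the highest clone in each of the 4 genes. Each clone is a single library, so the spread in this test comes from the replicated genotypes and doses.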

How the results depend on the processing

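The count of genes that differed between weak clones and untreated cells (2751 in all, with 1269 higher and 1482 lower) stayed within 1.5 times in all under RLE normalization, total counts, no filter, a minimum of 20 CPM, a joint fit of all 25 libraries and a correction for GC content and length (2704, chosen after seeing the data). The higher genes alone went to 1950, more than 1.5 times, in the joint fit. DESeq2 called 1690 (806 higher, 884 lower), thinning to the smallest library, which leaves fewer counts, 1780 (779 higher), and a test against a 1.5-fold change, a stricter null, 970 (385 higher, 585 lower). Total counts gave 1541 higher and 1295 lower, against 46.1% higher in the TMM fit. Leaving out 1 library gave 538 to 3264 genes, 171 to 1563 higher and 367 to 1701 lower, the lowest without untreated replicate 1. Of the selected targets 1 to 5 and of all listed genes 88 to 231 were then called, against 6 and 208; the 1.5-fold test called 3 and 94.

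Single clones gave 1088 (S45C), 956 (T41N) and 1671 (T41S) genes with DESeq2, and 1349 to 1677, 1195 to 1483 and 2387 to 2988 when an untreated library was left out. The difference among clones fell to 120 genes with DESeq2. The comparison with the other 12 clones gave 1168 to 2812 genes when a weak clone was left out. The S45C shift of chromosome 16 was 0.407 with the other 12 clones as reference and 0.429 to 0.458 without an untreated library. The largest shifts of T41N (chromosome 17, −0.174) and T41S (chromosome 7, −0.169) were −0.096 and −0.058 with the other clones as reference, −0.178 to −0.152 and −0.162 to −0.146 without an untreated library, and −0.142 for T41S over genes of at least 50 CPM. For the 34 single genes under 14 alternatives, 453 of 476 estimates kept their direction and side of the threshold, 21 lost the call, *Tbx3* gained it, and *Znrf3* ranged from −0.23 to 0.058 when a library was left out, the latter without T41N. Where no cause is stated, the cause was not tested.

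No paired analysis was possible because the numbers of the weak clones name clones, all carry 1, and share fewer than 2 numbers with the untreated libraries. Depth limited genes under about 1.63 to 6.05 CPM, the level that a count of 0 allows.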
